A study of Mus musculus with 12 samples.

Results

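The 39 HOX genes of the mouse were examined, chosen by symbol alone: every gene named Hoxa, Hoxb, Hoxc or Hoxd followed only by digits, with no opposite-strand transcript. They are 39 of the 48795 genes measured, with 11 in cluster A, 10 in cluster B, 9 in cluster C and 9 in cluster D. Total RNA came from NIH3T3, an immortalised fibroblast line derived from mouse embryos, in 4 groups of 3 libraries. The parental group is wild type and was sampled at passages 6, 7 and 8. The other groups are the clonal derivatives F5, G5 and H7, each with Aebp1, the gene for the AE-binding protein, knocked out, and each sampled at passages 7, 8 and 9. The culture medium, DMEM/F12 with serum from fetal calves, was the same in all groups. Every knockout group is 1 clone and the parental line was not cloned, so the loss of Aebp1, the cloning and the history of each clone cannot be told apart. Nothing in the labels makes the passages of a line separate cultures. The p-values therefore weigh a difference against the spread of these samples only, which may be technical.

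HOX genes encode transcription factors that bind DNA through a homeodomain. Mammals carry them in 4 clusters, and genes at matching places in different clusters share a paralog number from 1 to 13. Low numbers are used toward the head of the embryo and high numbers toward the tail and the ends of the limbs, in the order in which the genes lie along the chromosome. Fibroblasts keep, in culture and in the adult, a pattern of active HOX genes that reflects where in the body they arose, and Polycomb and trithorax proteins maintain the silent and the active state.

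In GRCm38 coordinates cluster A lies at chr6:52155590-52260880 on the minus strand and cluster B at chr11:96194316-96368256 on the plus strand. Cluster C lies at chr15:102921103-103036852 and cluster D at chr2:74668310-74765142, both on the plus strand. Hoxb9 and Hoxc9 share paralog number 9, and Hoxb8 and Hoxc8 share number 8. All 4 were higher in H7 than in the parental line, and their homeoboxes, the stretches of coding sequence for the homeodomain, are shown. Each is 180 bases long, read 5′ to 3′ on the coding strand from the GENCODE M21 transcripts, and lies in the last exon of its gene. Capitals mark the conserved core of the helix that contacts DNA. The stretches lie at chr11:96274659-96274838 (Hoxb9), chr15:102983930-102984109 (Hoxc9), chr11:96284174-96284353 (Hoxb8) and chr15:102992571-102992750 (Hoxc8).
Hoxb9: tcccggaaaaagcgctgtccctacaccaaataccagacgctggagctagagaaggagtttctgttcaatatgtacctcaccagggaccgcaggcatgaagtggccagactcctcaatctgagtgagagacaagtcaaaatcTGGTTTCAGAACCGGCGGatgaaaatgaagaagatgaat
Hoxc9: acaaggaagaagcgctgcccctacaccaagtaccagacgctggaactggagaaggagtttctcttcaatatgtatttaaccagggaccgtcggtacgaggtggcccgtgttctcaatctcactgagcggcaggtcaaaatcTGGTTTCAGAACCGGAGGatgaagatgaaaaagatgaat
Hoxb8: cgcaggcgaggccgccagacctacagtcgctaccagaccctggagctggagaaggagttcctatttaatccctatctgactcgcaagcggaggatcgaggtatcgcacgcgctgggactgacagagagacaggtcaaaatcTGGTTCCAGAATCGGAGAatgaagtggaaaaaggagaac
Hoxc8: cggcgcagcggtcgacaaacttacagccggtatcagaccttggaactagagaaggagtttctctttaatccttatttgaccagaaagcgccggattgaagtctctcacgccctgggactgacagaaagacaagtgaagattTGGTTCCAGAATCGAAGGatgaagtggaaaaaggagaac
Hoxb9 and Hoxc9 were identical at 83.9% of these bases and Hoxb8 and Hoxc8 at 80.0%. Between Hoxb8 and Hoxb9, neighbours in 1 cluster, the identity was 64.4%. Over all 42 pairs of HOX genes with the same number the median identity was 80.6%, against 60.6% over the 699 other pairs. The longest run of identical bases shared by the Hoxb9 and Hoxc9 transcripts, measured over their whole length and not over the homeobox, was 50 bases. Short reads from such a run could be assigned to the wrong one of them. The treatment of such reads is not stated in the labels or file headers.

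The 12 libraries held 22088695 to 31329735 counts in genes after rounding, and levels of 1 gene are given as CPM, counts divided by library sizes that the TMM method scaled, times 1000000. Levels of different genes are compared as TPM, transcripts per 1000000, which corrects for length. Differences between groups are log2 fold changes with a standard error (SE) from edgeR's quasi-likelihood test over all 14704 genes that passed its filter on low counts, and a gene was called changed at a Benjamini-Hochberg adjusted p under 0.05. Aebp1 was lower in every clone, at 193 CPM ± 19.9 (SD, n = 3) in F5, 128 ± 8.46 in G5 and 147 ± 14.4 in H7 against 553 ± 76.6 in the parental libraries, so RNA of the targeted gene was reduced and not absent. All 12 fibroblast markers reached 1 CPM in every library and summed to 24300 to 30500 CPM. Of the markers of other cell types, the 5 neural ones summed to 29.2 to 46.8 CPM in H7 and 9.09 to 17.0 in the other lines, nearly all of it Map2, with Sox2 and Sox10 at 0 counts in every library. The 6 epithelial markers summed to 0.589 to 0.995 CPM in H7 and at most 0.308 in the other lines (Epcam at 0, Cdh1 at up to 22 counts), and the 5 endothelial ones to 0.884 to 1.57 CPM in H7 and at most 0.766 elsewhere (Kdr at 0). The 5 leukocyte markers summed to 3.29 to 5.46 CPM over all lines, most of it Cd68 at 68 to 154 counts, with Adgre1 and Cd3e at 0. The 5 skeletal muscle markers summed to 0.158 to 1.04 CPM, with Myod1 at 0, and the 4 pluripotency markers to 0.318 to 0.797. The part of these levels in the HOX results was not tested. The second-passage libraries of the 4 lines deviated together from their own groups: 32.1% of all genes were called between the middle passage and the outer ones. In H7 the median difference from Parental was 0.44 over the 528 non-HOX genes tested on chromosome 15, where 54.7% were called, and -0.21 over the 773 on chromosome 6, where 26.4% were called, against -0.02 over all genes. What part these shifts have in the results on clusters C and A was not tested, and values with the median of each chromosome removed are given beside them.

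Of the 39 genes, 35 had a count above 0 in some library and 4 (Hoxa11, Hoxa13, Hoxb1 and Hoxb13) had 0 counts in all 12. The filter left 22 genes, with 9 in cluster A, 2 in B, 6 in C and 5 in D. A gene can pass it through 1 line alone, as Hoxb8 did through H7. The 13 others (Hoxb2 to Hoxb7, Hoxc10, Hoxc12, Hoxc13, Hoxd1 and Hoxd11 to Hoxd13) never exceeded 12 counts in a library, and their differences were not tested. Among them Hoxb5 had 88 counts over the 12 libraries, Hoxb3 and Hoxb6 69 each, and Hoxd1 and Hoxd12 1.0 each.

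The highest median levels over the libraries were 30.3 TPM for Hoxd8, 28.2 TPM for Hoxc6, 24.9 TPM for Hoxa3, 19.6 TPM for Hoxa7 and 15.5 TPM for Hoxa5. Each of these reached at least 11 TPM in every library. Next came Hoxd9 at 11.6 TPM, Hoxd4 at 11 TPM, Hoxc4 at 9.96 TPM and Hoxc5 at 9.13 TPM. The ranges of these neighbours in the order overlapped over the libraries, so their ranks do not separate them. In the parental line the strongly transcribed genes ended at number 7 in cluster A and at number 6 in cluster C, and in cluster D they ran on to number 9. In cluster B no gene passed 1 TPM in a parental library. Parental cells thus transcribed genes of low and middle number in clusters A, C and D, with cluster B close to silent.

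**Figure D1:**
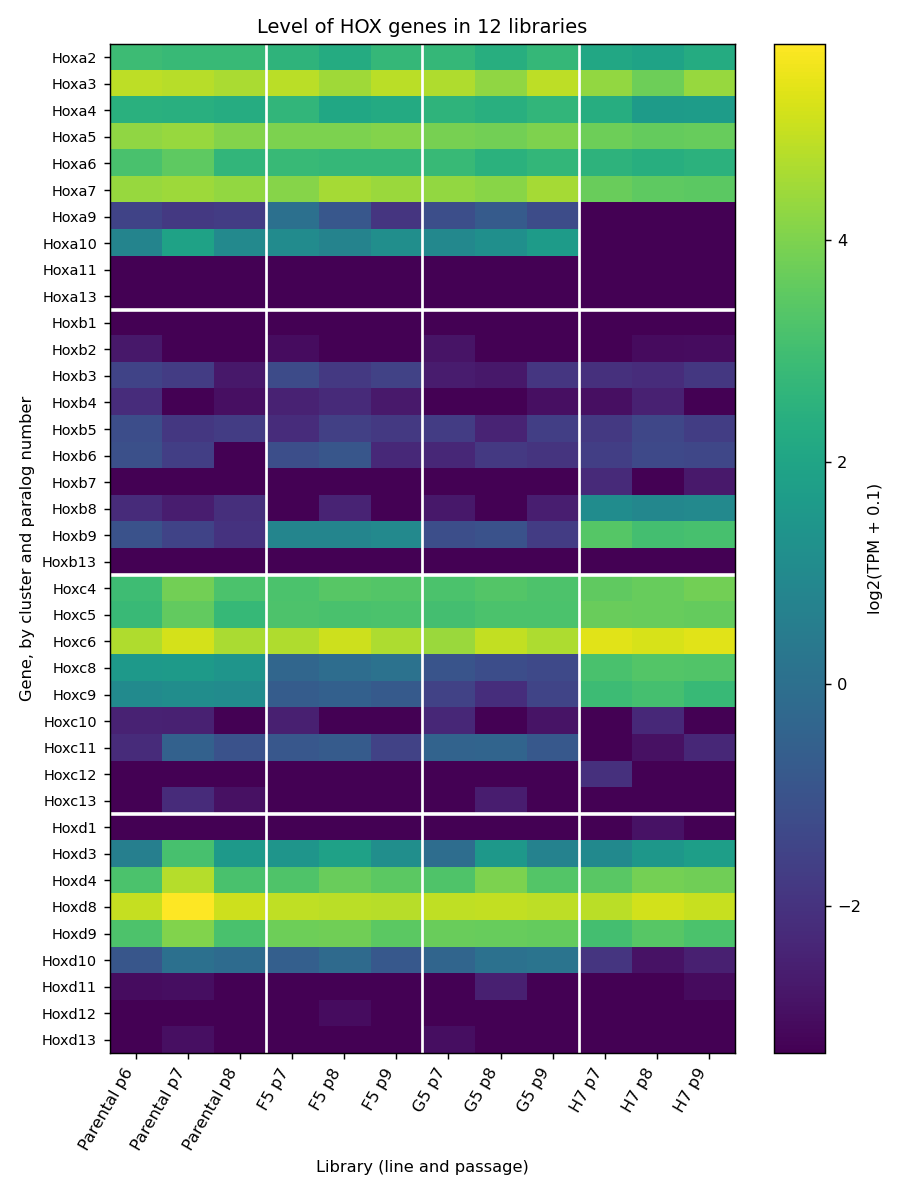
Level of 38 of the 39 HOX genes (rows, ordered by cluster and paralog number, with white lines between clusters) in the 12 libraries (columns, by line and passage). Color is log2(TPM + 0.1). Hoxa9 and Hoxa10 are at the bottom of the scale in the 3 H7 libraries, where Hoxb8, Hoxb9, Hoxc8 and Hoxc9 are at their highest.

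The first comparison was of the average clone with Parental. Of the 22 tested HOX genes, 9 were called (40.9%), 1 higher and 8 lower, where 19.0% of all genes tested were called, 8.55% higher and 10.5% lower. The 1 higher gene was Hoxb9 and the lower ones were Hoxa2, Hoxa5, Hoxa6, Hoxa7, Hoxa10, Hoxc8, Hoxc9 and Hoxd10. The median difference of the HOX genes was -0.36 against -0.02 for all genes. The clones did not move alike behind this mean: for Hoxc8 and Hoxc9 it averages 2 clones below and 1 clone far above the parental line, and for Hoxa10 it rests on H7. Single clones against Parental are therefore described by cluster.

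In F5, 4 HOX genes were called (18.2%, with Hoxb9 higher and Hoxa5, Hoxc8 and Hoxc9 lower), where 14.3% of all genes were called, 6.88% higher and 7.37% lower. In G5, 3 HOX genes were called (13.6%, all lower: Hoxa5, Hoxc8 and Hoxc9), where 13.1% of all genes were called, 6.54% higher and 6.56% lower, and without the parental library of passage 6 the count was 5. Both shares are near those of all genes. In H7, 15 HOX genes were called (68.2%), 6 higher and 9 lower, where 19.6% of all genes were called, 9.64% higher and 9.92% lower. Hoxb8 is among the 6 higher genes although it passed the filter through H7 alone. The median absolute difference in H7 was 0.70 for the tested HOX genes and 0.21 for all genes. With the second passage of every line left out, an alternative added after seeing the data, the counts were 6 for the mean, 4 for F5, 2 for G5 and 13 for H7. The share of all genes called is not given beside the counts from fits with libraries left out. Such counts do not separate a change of the HOX genes from a change in the calls of all genes.

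**Figure D2:**
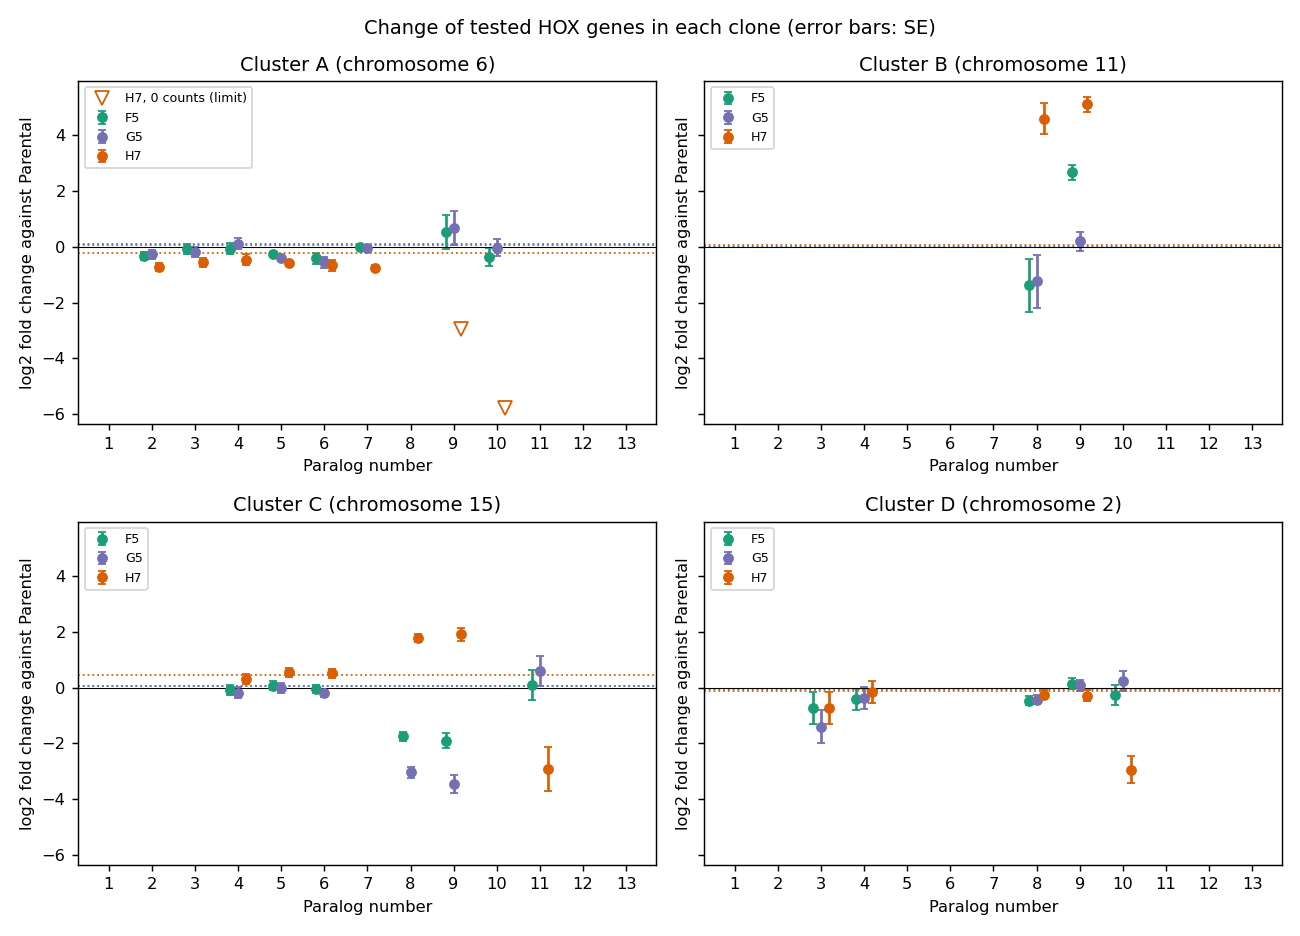
Log2 fold change against Parental (vertical axis) of 21 of the 22 tested HOX genes by paralog number (horizontal axis), in 1 panel per cluster, with SE bars. Open triangles give the limit set by 3 counts for Hoxa9 and Hoxa10, which had 0 counts in H7, and dotted lines the median of the other genes of that chromosome in each clone. The points that leave the zero line furthest lie at numbers 8 to 11.

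Cluster B was nearly silent in the parental line, and its posterior genes showed the largest increases. Hoxb9, which acts in thoracic patterning and in the mammary gland, stood at 0.537, 0.355 and 0.220 CPM in the parental libraries (passage order throughout) and at 0.495, 0.544 and 0.239 CPM in G5. In F5 it stood at 2.34, 2.26 and 2.55 CPM and in H7 at 14.3, 11.9 and 12.8 CPM. Every H7 library was above every F5 library, every F5 library above both other lines, and Parental and G5 overlapped. The difference from Parental was 2.67 (SE 0.28, adjusted p = 0.000246) in F5 and 5.12 (SE 0.28, adjusted p = 1.5e-06) in H7, a rise of 6.37-fold and 34.7-fold. In G5 it was 0.20 (SE 0.35, adjusted p = 0.777), which is within the spread of the libraries.

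Hoxb8, known for its part in blood cell progenitors and in grooming behaviour of mice, was detected well in H7 alone. Its counts were 1, 2 and 4 in the parental libraries, 0, 3 and 0 in F5, 2, 0 and 1 in G5, and 66, 69 and 61 in H7. The H7 libraries were far above all others, which overlapped one another at a handful of counts. The difference of H7 from Parental was 4.60 (SE 0.56, adjusted p = 0.000265), or 24.2-fold. Since Hoxb8 passed the filter through H7 alone, this p-value adds no support that is independent of its high H7 counts. The 3 counts of F5 and of G5 give ratios of H7 to them of 70.6 (95% interval 23.8 to 345.0) and 63.4 (21.4 to 310.2), intervals that cover counting error only. The genes of cluster B with numbers 1 to 7 were not part of this increase: their summed level was 0.747 TPM ± 0.0594 (SD, n = 3) in H7 and 0.674 ± 0.427 in Parental, while Hoxb8, Hoxb9 and Hoxb13 together went from 0.370 ± 0.117 to 10.9 ± 1.15 TPM. In bulk RNA, more cells with a transcript and more transcript per cell cannot be told apart, here or for any gene below. The chromosome as a whole stood at 0.05 in H7, the median over 1092 non-HOX genes of chromosome 11.

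The 250 bases before the RefSeq start site of Hoxb8, chr11:96281655-96281904 of GRCm38.p6 on the plus strand, are printed because this gene went from near 0 to a clear level in a single clone. The window of the same length before Hoxa10, chr6:52240855-52241104 on the minus strand, is printed because that gene went to 0 in the same clone. Capitals mark matches, on either strand, to TATAAA (the TATA box) or to TGATNNAT (a joint site of HOX and PBX proteins). Overlapping matches were all kept.
Hoxb8: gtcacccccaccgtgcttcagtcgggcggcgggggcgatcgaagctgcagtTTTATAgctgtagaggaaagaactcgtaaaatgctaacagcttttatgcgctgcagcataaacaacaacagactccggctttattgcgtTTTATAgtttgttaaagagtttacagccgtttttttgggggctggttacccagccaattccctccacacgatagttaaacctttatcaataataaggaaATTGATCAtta
Hoxa10: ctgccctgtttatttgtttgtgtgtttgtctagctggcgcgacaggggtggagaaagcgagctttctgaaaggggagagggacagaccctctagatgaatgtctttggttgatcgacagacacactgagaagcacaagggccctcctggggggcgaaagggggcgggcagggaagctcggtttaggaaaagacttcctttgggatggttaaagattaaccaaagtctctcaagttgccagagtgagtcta
Hoxb8 had 2 TATAAA matches and 1 TGATNNAT match, and the Hoxa10 window held neither. A TATAAA match was present in 12.4% of all 32851 RefSeq windows and in 4 of the 24 windows that matched a HOX gene, and a TGATNNAT match in 7.7% and 4 of 24. These are matches of letters, not binding sites. The HOX windows held a median of 12.5 CpG dinucleotides, against 6 over all windows.

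**Figure D3:**
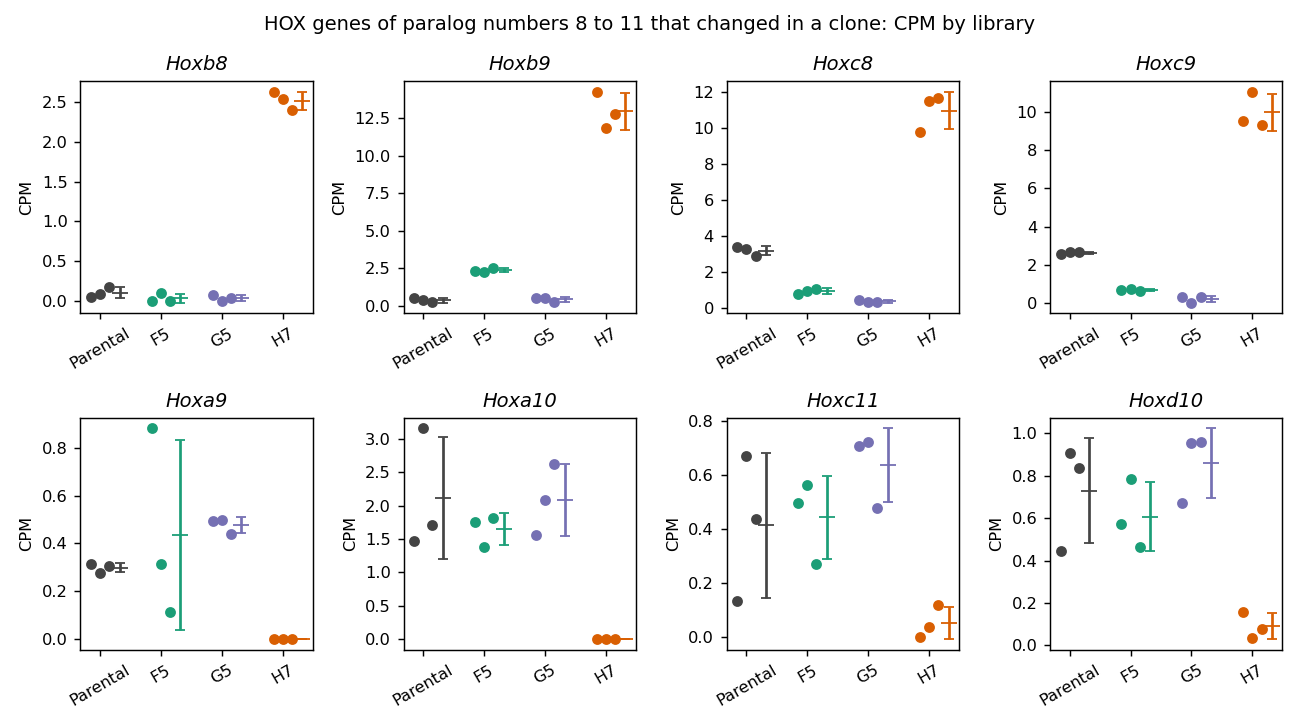
CPM (linear axes, a scale for each panel) of 8 HOX genes with numbers 8 to 11 in each library, with the mean and SD of each line beside its 3 points. H7 stands above the other lines for Hoxb8, Hoxb9, Hoxc8 and Hoxc9 and below them for Hoxa9, Hoxa10, Hoxc11 and Hoxd10, and F5 and G5 lie below Parental for Hoxc8 and Hoxc9.

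Cluster C split the clones into opposite directions. Hoxc8, which patterns the thoracic skeleton and brachial motor neurons, stood at 3.40, 3.28 and 2.90 CPM in Parental, at 0.766, 0.973 and 1.08 in F5, at 0.460, 0.363 and 0.319 in G5 and at 9.75, 11.5 and 11.6 in H7. The 4 lines did not overlap, with G5 lowest, then F5, Parental and H7. F5 differed from Parental by -1.76 (SE 0.17, adjusted p = 0.000148), G5 by -3.04 (SE 0.20, adjusted p = 9.24e-06) and H7 by 1.78 (SE 0.15, adjusted p = 3.26e-05). The gene thus fell 3.38-fold in F5 and 8.24-fold in G5 and rose 3.43-fold in H7.

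Hoxc9, which sets thoracic identity in the spinal cord, followed the same order of lines. Its level was 2.59, 2.68 and 2.68 CPM in Parental, 0.690, 0.753 and 0.656 in F5, 0.318, 0.0453 and 0.319 in G5 and 9.51, 11.1 and 9.32 in H7. No 2 lines overlapped, and the middle value of G5 is 1 count. It differed from Parental by -1.91 in F5 (SE 0.27, adjusted p = 0.00129), by -3.46 in G5 (SE 0.33, adjusted p = 9.8e-05) and by 1.91 in H7 (SE 0.24, adjusted p = 0.000335). With the chromosome 15 median removed, Hoxc8 and Hoxc9 remained called in H7, at 1.34 (adjusted p = 0.000224) and 1.46 (adjusted p = 0.00208). Hoxb9 and Hoxc9, whose transcripts share a run of 50 bases, moved in opposite directions in F5 and both rose in H7. The part of reads assigned to the wrong gene was not tested.

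The mean of the clones was -1.01 (SE 0.13, adjusted p = 0.00054) for Hoxc8 and -1.16 (SE 0.21, adjusted p = 0.00374) for Hoxc9. That direction depends on how the clones are averaged: with the 9 knockout libraries taken as 1 group the differences were 0.36 (adjusted p = 0.882) and 0.45 (adjusted p = 0.863), since the high counts of H7 then weigh most.

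The anterior genes of cluster C were called in H7 by a smaller margin. Hoxc6, active in the brachial spinal cord and the thorax, stood at 27.5, 27.0 and 30.8 CPM in H7 and at 18, 23.9 and 18.1 in Parental, 17.7, 22 and 18.5 in F5 and 14.8, 20.8 and 16.5 in G5. H7 was above every other library, and the other lines overlapped. The difference of H7 from Parental was 0.51 (SE 0.15, adjusted p = 0.0337). Hoxc5, which acts in phrenic motor neurons, stood at 20.3, 20.2 and 20.3 CPM in H7 and at 11.6, 18.8 and 11.2 in Parental, 14.9, 14 and 14.7 in F5 and 13.1, 14.6 and 13.5 in G5. Again H7 was above all others, with the second parental library closest to it, at a difference of 0.55 (SE 0.16, adjusted p = 0.0348). Neither gene was called in F5 or G5 against Parental. With the chromosome median removed neither rise held in H7, at 0.06 for Hoxc6 (adjusted p = 0.825) and 0.10 for Hoxc5 (adjusted p = 0.725). Without the parental library of passage 6 both calls were also lost, at 0.44 for each gene (adjusted p = 0.0934 for Hoxc6 and 0.0993 for Hoxc5), as they were without that of passage 8 or without any 1 H7 library, and that of Hoxc5 also without the F5 library of passage 9 (adjusted p = 0.0517). Without the parental library of passage 7 they held, at 0.65 for Hoxc6 (adjusted p = 0.0092) and 0.83 for Hoxc5 (adjusted p = 7.99e-05). Hoxc4 was not called in H7, at 0.31 (SE 0.18, adjusted p = 0.274). Reads of Hoxc5 may be shared with Hoxc10, whose annotated exons overlap it.

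Hoxc11, a gene of the lumbar and sacral region and the hind limb, was the 1 gene of cluster C that was lower in H7. It had 0, 1 and 3 counts in H7 and 3 to 20 in the 9 other libraries. Its difference from Parental was -2.92 (SE 0.78, adjusted p = 0.0231), lost without the parental library of passage 7, at -2.38 (adjusted p = 0.0802), without that of passage 8 (adjusted p = 0.0507) and without the H7 library of passage 7 or 8 (adjusted p = 0.0771 and 0.0812). Its level was 0.0516 CPM ± 0.0604 (SD, n = 3) in H7 against 0.415 ± 0.269 in Parental, 0.444 ± 0.155 in F5 and 0.637 ± 0.138 in G5. Along this cluster in H7, numbers 8 and 9 were thus higher and number 11 lower than in Parental.

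In cluster A every called gene of H7 was lower, and its posterior genes went to 0. Hoxa10, known for its part in the uterus and the lumbar vertebrae, had 33, 80 and 39 counts in the parental libraries, 46, 44 and 47 in F5, 44, 46 and 66 in G5 and 0 in each of the 3 H7 libraries. F5, G5 and Parental overlapped, and H7 had no read. With 3 counts over the 3 libraries taken as the limit of detection, 0.0386 CPM in H7, Hoxa10 was at least 55.9-fold lower in H7 than in Parental, at least 42.3-fold lower than in F5 and at least 53.6-fold lower than in G5. The adjusted p was 0.000106 against Parental. Hoxa10 was also called in the mean of the clones (adjusted p = 0.00105), a call that rests on the H7 libraries: in F5 and G5 its differences were -0.37 (SE 0.32, adjusted p = 0.512) and -0.03 (SE 0.32, adjusted p = 0.974).

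Hoxa9, a gene of blood progenitors and of the limb, had 3 to 23 counts in the 9 libraries of the other lines and 0 in each H7 library. It was at least 7.72-fold lower in H7 than in Parental (adjusted p = 0.0145), at least 11.1-fold lower than in F5 and at least 12.4-fold lower than in G5. Without the second passage of every line the adjusted p against Parental was 0.0817, over 2 libraries a line, and with limma on log2(TPM + 1) it was 0.226. The annotated exons of Hoxa9 overlap those of the microRNA gene Mir196b, which had 0 counts in all libraries.

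The genes with numbers 2 to 7 of cluster A fell by far less in H7. Hoxa7, with a part in thoracic patterning, stood at 13.3, 12 and 12.5 CPM in H7 against 21.8, 21.6 and 20.8 in Parental, 18.6, 23.2 and 21.4 in F5 and 20.7, 18.6 and 22.9 in G5. H7 was below all 9 other libraries, which overlapped, and the difference was -0.77 (SE 0.10, adjusted p = 0.000439). Hoxa5, needed for the lung and the neck skeleton, stood at 20.3, 20.9 and 18 CPM in Parental, 16.0, 15.8 and 17.6 in F5, 14.9, 14.7 and 15.4 in G5 and 13.6, 12.7 and 13.4 in H7. All 9 knockout libraries were below the 3 parental ones. H7 stood at -0.58 against Parental (SE 0.08, adjusted p = 0.000665), G5 at -0.40 (SE 0.08, adjusted p = 0.00865) and F5 at -0.27 (SE 0.08, adjusted p = 0.0489), and no other HOX gene was called with the same sign in F5, G5 and H7. The call in F5 is marginal: leaving out any 1 library other than the parental one of passage 8 ended it, with values of -0.31 to -0.22 and an adjusted p of up to 0.166. In G5 the call was lost without the second passage of every line, at -0.34 (adjusted p = 0.0584).

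Hoxa2, which specifies the second pharyngeal arch, stood at 4.10, 3.72 and 4.72 CPM in H7 and 7.34, 6.55 and 6.85 in Parental, with 5.75, 4.55 and 6.33 in F5 and 6.19, 4.94 and 5.98 in G5. H7 was below Parental and G5 in every library and overlapped F5, and its difference from Parental was -0.73 (SE 0.15, adjusted p = 0.00702). Hoxa3, a gene of the thymus and parathyroid, stood at 24.6, 16.8 and 26.8 CPM in H7 and 35.8, 33.4 and 31.1 in Parental, with 33.8, 27.2 and 34.2 in F5 and 30.8, 23.9 and 33.2 in G5. H7 was below Parental in every library and overlapped G5, and its difference was -0.56 (SE 0.17, adjusted p = 0.0431), lost in 9 of the 12 fits that left out 1 library, among them every parental library (adjusted p = 0.0621 to 0.1) and the second of H7 (-0.38, adjusted p = 0.126). Hoxa6, a gene of the lower neck and upper thorax, stood at 2.75, 2.50 and 2.83 CPM in H7 and 4.34, 5.41 and 3.08 in Parental, with 3.33, 3.14 and 3.16 in F5 and 3.22, 2.63 and 2.87 in G5. H7 was below Parental in every library, but the third parental library lay among those of F5 and G5 and the second far above them. The difference of H7 was -0.67 (SE 0.19, adjusted p = 0.0298). That call was lost without the parental library of passage 7, at -0.46 (adjusted p = 0.0985), without that of passage 6 (adjusted p = 0.0601) and without any 1 H7 library (adjusted p = 0.0664 to 0.0964). Hoxa4 was not called in H7, at -0.46 (SE 0.20, adjusted p = 0.139).

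With the chromosome 6 median removed, Hoxa2 (-0.51, adjusted p = 0.0465), Hoxa5 (-0.36, adjusted p = 0.0125) and Hoxa7 (-0.55, adjusted p = 0.00412) remained called in H7, as did Hoxa9 and Hoxa10. Hoxa3 (-0.34, adjusted p = 0.224) and Hoxa6 (-0.45, adjusted p = 0.143) did not. In the mean of the clones Hoxa5 was at -0.41 (SE 0.06, adjusted p = 0.00147), Hoxa2 at -0.44 (SE 0.12, adjusted p = 0.0273), Hoxa6 at -0.55 (SE 0.15, adjusted p = 0.0271) and Hoxa7 at -0.28 (SE 0.08, adjusted p = 0.0323). Leaving out 1 parental library (passage 6 for each) ended the calls of Hoxa2 (-0.40, adjusted p = 0.0851), Hoxa6 (-0.54, adjusted p = 0.0659) and Hoxa7 (-0.27, adjusted p = 0.0844) but not that of Hoxa5, and without the parental library of passage 7 Hoxa6 was at -0.34 (adjusted p = 0.159). Exons of Hoxa2 and Hoxa3 overlap a read-through model of both genes, and exons of Hoxa3, Hoxa4 and Hoxa7 overlap antisense genes. No source used here says whether the counting used strand, so their counts are uncertain to that extent.

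Cluster D held the gene with the highest median level, Hoxd8. Hoxd10, a gene of the lumbar spinal cord and the limb, was its 1 called member. It had 10, 23 and 19 counts in Parental, 15, 25 and 12 in F5, 19, 21 and 24 in G5 and 4, 1 and 2 in H7. H7 was below all others, which overlapped, and its difference from Parental was -2.95 (SE 0.49, adjusted p = 0.00168), or 7.75-fold lower. The call in the mean of the clones, at -1.0 (SE 0.32, adjusted p = 0.0488), was lost without the parental library of passage 7 (-0.81, adjusted p = 0.186) and in 8 of the other 11 fits that left out 1 library. F5 and G5 were at -0.26 and 0.22 and were not called. A read-through model, Gm28309, shares exons with Hoxd10 and Hoxd11.

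Hoxd8 stood at 41.2, 67.8 and 44.8 CPM in Parental against 35.2 to 47.7 in the 9 knockout libraries, and its mean difference was -0.39 (SE 0.13, adjusted p = 0.0558). Hoxd9, Hoxd3 and Hoxd4 were not called against Parental in any clone. The parental library of passage 7 stood apart in this cluster. It held 346 counts of Hoxd3 against 49 and 109 in the other parental libraries, and 690 of Hoxd4 against 195 and 223. Its summed level of cluster D was 107 TPM, with 51.4 and 55.4 in the other parental libraries and 49.2 to 63.3 in the knockout libraries. Without that library 13 HOX genes were called in H7 and 7 in the mean of the clones, counts given without the share of all genes called in that fit. The exons of Hoxd3 and Hoxd4 overlap each other and a read-through model, so the reads of these genes cannot be fully separated.

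**Figure D4:**
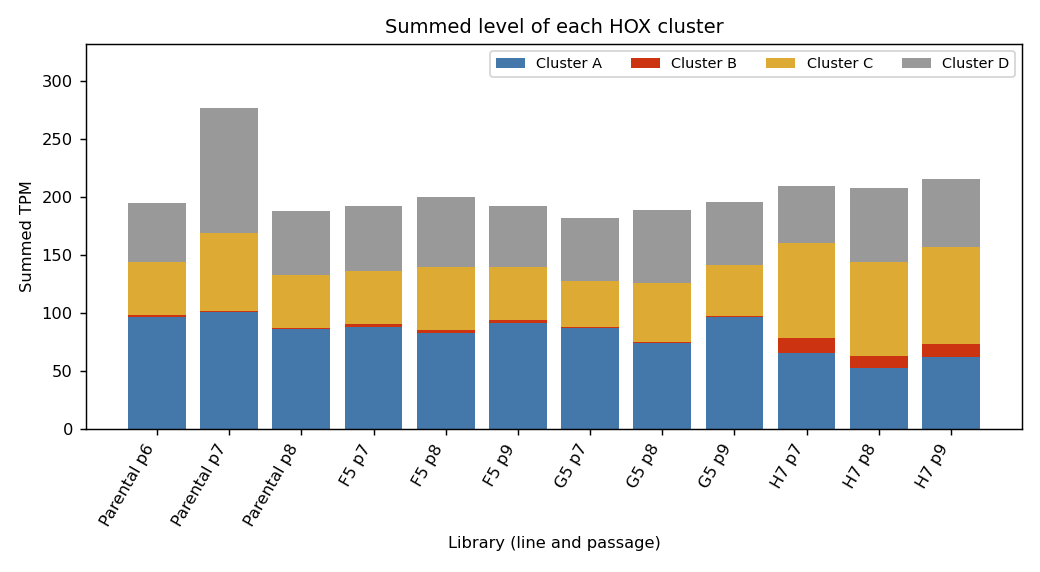
Summed TPM of the HOX genes of each cluster, stacked (vertical axis from 0), in the 12 libraries (horizontal axis). The H7 libraries have less of cluster A and more of clusters B and C than the others at a similar total, and the parental library of passage 7 has the most of cluster D.

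Summed over all 39 genes, the level was 220 TPM ± 49.2 (SD, n = 3) in Parental, 194 ± 4.26 in F5, 189 ± 7.08 in G5 and 211 ± 4.20 in H7, ranges that overlap between Parental and each clone. What differed in H7 was the make-up. Cluster A gave 44.0% ± 6.78 of the HOX sum in Parental, 44.9% ± 3.10 in F5, 45.5% ± 5.32 in G5 and 28.3% ± 2.92 in H7. Cluster C gave 24.0% ± 0.654, 25.1% ± 1.97, 23.9% ± 2.73 and 39.1% ± 0.130 in the same order, and cluster B 0.493% ± 0.300, 1.32% ± 0.0545, 0.423% ± 0.0377 and 5.55% ± 0.540. For each of these clusters the H7 libraries lay outside the range of the 9 others. Within cluster C the genes of numbers 8 to 13 summed to 5.29 TPM ± 0.512 in Parental, 1.82 ± 0.124 in F5, 1.23 ± 0.175 in G5 and 17.2 ± 1.2 in H7. In cluster A the same numbers summed to 2.61 ± 1.09, 2.41 ± 0.438, 2.75 ± 0.627 and 0 TPM. With 3 libraries a group a two-sided exact permutation test of such a sum cannot go below p = 0.1, so none was run.

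The clones were also compared with each other, in the same fit of all 12 libraries. The parental libraries thus took part in the filter, the scaling and the estimate of the spread. Between F5 and G5, 2 HOX genes were called, both higher in F5, where 0.258% of all genes were called, 0.190% higher and 0.0680% lower. Hoxb9 was 2.47 higher (SE 0.27, adjusted p = 0.00229) and Hoxc8 1.28 higher (SE 0.21, adjusted p = 0.0326). Hoxc9 was 1.55 higher in F5 (SE 0.36, adjusted p = 0.214) and was not called. The call of Hoxc8 was lost in 8 of the 12 fits that left out 1 library and without the second passage of every line (1.22, adjusted p = 0.459), while Hoxb9 was called in all of them. With the passage number as a block, which paired the libraries of the clones, Hoxc8 was not called either (1.28, adjusted p = 0.171). Nor was it called with only the libraries of F5 and G5 in the fit (1.29, adjusted p = 0.343).

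Between F5 and H7, 11 HOX genes were called, 6 higher and 5 lower in F5, where 17.9% of all genes were called, 9.45% higher and 8.49% lower. Those higher in F5 were Hoxa5, Hoxa7, Hoxa9, Hoxa10, Hoxc11 and Hoxd10, and those lower Hoxb8, Hoxb9, Hoxc6, Hoxc8 and Hoxc9. Between G5 and H7, 11 were called, 5 higher and 6 lower in G5, where 17.4% of all genes were called, 8.88% higher and 8.51% lower. Those lower in G5 were Hoxb8, Hoxb9, Hoxc5, Hoxc6, Hoxc8 and Hoxc9, and those higher Hoxa7, Hoxa9, Hoxa10, Hoxc11 and Hoxd10. Hoxc9, for example, was 41.4-fold higher in H7 than in G5 (log2 difference 5.37 between them, SE 0.32, adjusted p = 1.26e-06). Both comparisons use the same H7 libraries, and Hoxb8 was tested in them only because of its counts in H7. With chromosome medians removed, Hoxa5 (0.02) and Hoxc6 (-0.17) were no longer called between F5 and H7, nor Hoxc5 (-0.17) and Hoxc6 (-0.32) between G5 and H7. With the passage block the call of Hoxc6 between F5 and H7 was lost as well (-0.55, adjusted p = 0.0502). Leaving out 1 library ended the call of Hoxa5 in 3 of 12 fits (adjusted p = 0.0562 to 0.0903), of Hoxc6 between F5 and H7 in 4 (0.0532 to 0.0953), of Hoxc11 between F5 and H7 in 4 (0.0529 to 0.0745) and of Hoxc5 between G5 and H7 in 7 (0.0515 to 0.0999).

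Within lines, 0 HOX genes were called for a steady trend with passage by edgeR, DESeq2 or limma, where edgeR called 1.12% of all genes, 0.741% rising and 0.374% falling. By edgeR 1 of them (Hoxa4) had an unadjusted p under 0.05. With the middle passage set against the outer ones, 7 HOX genes were called, 4 higher and 3 lower, or 31.8% where 32.1% of all genes were called, so the HOX genes took part at the rate of the whole transcriptome. Among those lower at the middle passage were Hoxa2 (-0.27, adjusted p = 0.0369) and Hoxa3 (-0.33, adjusted p = 0.0154). Higher were Hoxd3 (1.03, adjusted p = 0.0219), Hoxd4 (0.76, adjusted p = 0.00666), Hoxd9 (0.32, adjusted p = 0.0457) and Hoxc6 (0.24, adjusted p = 0.0376). The call of Hoxa2 was lost with DESeq2 (adjusted p = 0.0984) and in several fits that left out 1 library, such as F5 at passage 8 (adjusted p = 0.143). That of Hoxc6 was lost in several such fits, among them without G5 at passage 8 (adjusted p = 0.16), which also ended that of Hoxa3 (adjusted p = 0.0554). Without the parental library of passage 7 the differences of Hoxd3 (0.60, adjusted p = 0.1) and Hoxd9 (0.16, adjusted p = 0.176) were smaller and not called, and that of Hoxd4 was 0.46 and called (adjusted p = 0.00193). Over fits that left out 1 library the count was 2 to 5, given without the share of all genes called in those fits. The labels name no batch for these libraries. Of the genes of numbers 8 to 11 that separated the clones, Hoxb8, Hoxb9, Hoxc8, Hoxc9, Hoxa9, Hoxa10, Hoxc11 and Hoxd10 were not called for the middle passage, with values from -0.16 to 0.58. Those of Hoxc11 (0.58, SE 0.40) and Hoxd10 (0.33, SE 0.28) were as large as some of the called ones, with wider errors.

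**Figure D5:**
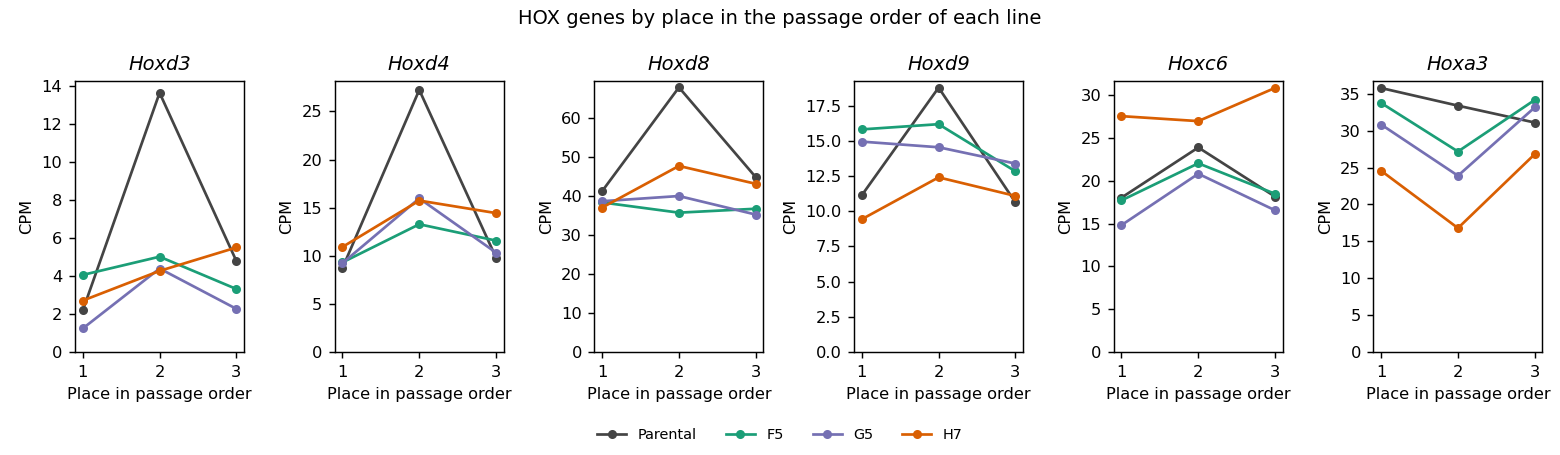
CPM (vertical axes from 0) of 6 HOX genes at the 3 passages sampled of each line, in their order (horizontal axis), 1 library a point and 1 line a color. The parental line peaks at its second library for Hoxd3, Hoxd4, Hoxd8 and Hoxd9, and Hoxa3 is lowest at the second passage in the 3 clones.

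Other transcripts inside the clusters were read for comparison. Of a list of 13 non-coding RNAs of the HOX clusters, 11 matched a gene, 5 were tested and 0 were called by edgeR in the mean of the clones or in any single clone against Parental. At an unadjusted p under 0.05 the count was 2 in H7 and 0 in the mean, F5 and G5. Between F5 and H7, 2 of the 5 were called, both higher in F5. Of all genes 9.45% were called higher and 8.49% lower there. Between F5 and G5 and between G5 and H7 0 of the 5 were called. Hotair, in cluster C at chr15:102944062-102947730 and opposite to the HOXC genes, was 1.72 lower in H7 than in Parental on the log2 scale, which was not called (adjusted p = 0.113), and was called higher in F5 than in H7 (2.21, adjusted p = 0.0411). That call was lost in 9 of the 12 fits that left out 1 library (adjusted p = 0.0531 to 0.109) and without the second passage of every line (adjusted p = 0.123). One gene outside the list, Gm53, was singled out after its values were seen. It is a long non-coding RNA of cluster B at chr11:96251105-96264868, between Hoxb9 and Hoxb13 and on their strand. It had 6 to 9 counts in the parental libraries, 129 to 147 in F5, 19 to 29 in G5 and 135 to 163 in H7. Its differences from Parental were 4.01 (SE 0.20, adjusted p = 3.35e-06), 1.69 (SE 0.22, adjusted p = 0.000781) and 4.29 (SE 0.20, adjusted p = 8e-07). For Gm53 F5 and H7 did not differ past the threshold (adjusted p = 0.25) and G5 was called above Parental, while Hoxb9 was higher in H7 than in F5 and was not called in G5 against Parental.

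The 2 nearest tested protein-coding genes on each side of each cluster gave 16 neighbours. Those called in the mean of the clones were Atp5g1 beside cluster B (0.27, adjusted p = 0.0378) and Atp5g2 (0.55, adjusted p = 0.0437) and Smug1 (0.28, adjusted p = 0.0306) beside cluster C. These are 3 of 16, where 19.0% of all genes were called. In H7 the same 3 were called, at 0.34, 0.85 and 0.49, where 19.6% of all genes were called. None of the 3 was called with the chromosome medians removed. In H7 Skap2 and Hibadh, next to cluster A, were at -0.08 (adjusted p = 0.724) and -0.29 (adjusted p = 0.0769), and Mtx2 and Lnpk, next to cluster D, at 0.13 (adjusted p = 0.178) and -0.10 (adjusted p = 0.492). In H7 no neighbour changed by as much as Hoxb9, Hoxc8, Hoxc9 or Hoxd10. Atp5g2, at 0.85, exceeded Hoxc5 (0.55), Hoxc6 (0.51) and Hoxa7 (-0.77) in size. Between clones, Hibadh was called at 0.58 for F5 minus H7 (adjusted p = 0.00304). For G5 minus H7 it was called at 0.55 (adjusted p = 0.00384). Tax1bp1 was called in both (0.22 and 0.29, adjusted p = 0.0306 and 0.0083). Smug1 was called for G5 minus H7 (-0.33, adjusted p = 0.0319). None of these calls between clones held with the chromosome medians removed.

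Genes that act with or upstream of HOX proteins were counted by list in the mean of the clones, against 8.55% of all genes called higher and 10.5% lower. Of the 9 TALE cofactors, which bind DNA together with HOX proteins, 3 were called, each of them lower, among them Meis2 (-0.36, adjusted p = 0.0128) and Pknox2 (-1.82, adjusted p = 0.00454). Of 31 tested Polycomb genes 3 were higher and 3 lower. The 3 with the smallest adjusted p were Epop (-2.75, adjusted p = 0.000113), an accessory subunit of Polycomb complex 2, Yaf2 (0.62, adjusted p = 0.000235) and Pcgf5 (0.57, adjusted p = 0.00256), both parts of variant Polycomb complex 1. Epop stood at 4.53 CPM in Parental and at 3.22 in H7, 0.561 in F5 and 0.158 in G5, and was not called in H7 (-0.49, adjusted p = 0.349). Ezh2, the methyltransferase of Polycomb complex 2, was not called (adjusted p = 0.996).

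Of 21 trithorax and COMPASS genes 2 were higher and 4 lower, among them Ncoa6 (-0.21), Setd1b (-0.26) and the methyltransferase gene Kmt2b (-0.20). Of 12 CTCF and cohesin genes the 1 called was Pds5a, at 0.18 (adjusted p = 0.0447). Of 10 tested genes of the retinoic acid pathway, which switches HOX genes on in the embryo, 2 were called in the mean, both lower. Rxra, a nuclear receptor of retinoids, was at -0.43 (adjusted p = 0.000138). In H7 alone 4 of the 10 were called higher and 1 lower, where 9.64% and 9.92% of all genes were. In F5 and in G5 0 were called higher and 2 lower. Of all genes 6.88% were called higher and 7.37% lower in F5, and 6.54% and 6.56% in G5. In a list of 44 other developmental transcription factors 11 were tested. In the mean of the clones 5 of them were called, each of them lower, with Prrx2 at -0.89, En1 at -0.74 and Prrx1 at -0.46. In the mean of the clones the median differences of these lists lay between -0.32 and 0.08, with -0.02 over all genes.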

How the data were processed

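Total RNA of 12 libraries, 3 in each of 4 lines, was sequenced from both ends after ribosomal RNA depletion, with a stranded kit, per the labels' protocols. One table the authors deposited holds an estimated count for each Ensembl gene and library, not normalized, of which 86.9% of values above 0.5 lie within 0.01 of a whole number, and the other, also deposited, holds TPM, whose columns sum to 1000000. The build is GRCm38, per the submitters' processing notes. The sources used here do not name the aligner, the counting method or the use of strand.

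Gene names came from GENCODE M21, which matched 48349 of 48795 identifiers. Estimated counts were rounded and tested with edgeR 4.0.16 in R 4.3.3: filterByExpr on the 4 lines left 14704 genes, followed by TMM scaling, a quasi-likelihood fit with 1 term per line over all 12 libraries (8 residual degrees of freedom) and Benjamini-Hochberg adjustment over all genes tested. The passage fit added the place in the passage order and an indicator of the middle place (6 residual degrees of freedom). The steps were checked on simulated data with changes set in H7. They recovered 17 of 67 changes of 1.5-fold, 47 of 67 of 2-fold and 55 of 66 of 4-fold, with 1 false call. Small differences can thus go uncalled. The simulated libraries shared no deviation by passage, unlike the real ones. No 2 libraries had identical values. Library totals of 22088695 to 31329735 rounded counts set the precision, and 3 counts summed over a line served as the limit of detection. Intervals and limits cover counting error only, since reads carry no molecular identifiers.

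Alternatives were DESeq2 1.42.0, median-ratio factors, no filter, limma 3.58.1 on log2(TPM + 1) and log2(TPM + 0.1), passage or place as a block, chromosome medians removed, counts summed per line, pooled knockout libraries, only the groups compared, and each library left out. Sequences came from GENCODE M21 transcripts and from RefSeq promoter windows of GRCm38.p6, with 24 windows for 22 HOX genes. HOX genes called in a comparison of groups with a mean of at least 0.5 CPM are given in every library, the others by range. Of other genes Aebp1, from each list the 3 or fewer genes with the lowest adjusted p in the mean of the clones, and the 2 nearest expressed neighbours on each side of a cluster are named. The lists were TALE cofactors, Polycomb, trithorax and COMPASS, CTCF and cohesin, the retinoic acid pathway, non-coding RNAs of the clusters, and other developmental transcription factors. Ezh2, Skap2 and other genes outside this rule were named as background. Libraries of 2 clones with the same passage number deviated together in 9 of 9 pairs (correlation of deviations from the group means, 0.24 to 0.68), so the numbers paired the clones. With Parental 0 of 6 pairs were over 0.1 (-0.64 to -0.28). By place in the passage order, over all lines, 16 of 18 pairs were over 0.1, and 6 of 6 for the second place. The members and lists were chosen with earlier results of these data known. A few genes that the rule would name, and 1 sequence, are not reported here.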

Additional observations from a re-analysis of the deposited data

Results flagged for a closer look

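The effect of a knockout clone against Parental differed between clones for the HOX genes listed below. The test was that of the clones against each other in edgeR's quasi-likelihood fit (Benjamini-Hochberg adjusted p under 0.05). All values here are log2 differences of the first clone named minus the other.

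F5 minus G5 gave 2.47 for Hoxb9 and 1.28 for Hoxc8. F5 minus H7 gave -2.45 for Hoxb9, -3.54 for Hoxc8, -3.82 for Hoxc9, -0.55 for Hoxc6, 0.31 for Hoxa5, 0.74 for Hoxa7, 3.01 for Hoxc11 and 2.70 for Hoxd10. G5 minus H7 gave -4.92 for Hoxb9, -4.82 for Hoxc8, -5.37 for Hoxc9, -0.56 for Hoxc5, -0.71 for Hoxc6, 0.72 for Hoxa7, 3.51 for Hoxc11 and 3.18 for Hoxd10.

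For 3 genes one side had at most 3 counts, and the fitted value depends on the prior count and is no bound. Those values were 6.49 (Hoxa9), 8.40 (Hoxa10) and -5.97 (Hoxb8) for F5 minus H7, and 6.63 (Hoxa9), 8.74 (Hoxa10) and -5.83 (Hoxb8) for G5 minus H7. Every H7 library lay outside the range of F5 and of G5 for these 3 genes.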

How the results depend on the processing

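Of the differences of HOX genes called above, 61 were refitted under each alternative: 1151 of 1378 values kept sign and call, 223 lost the call and 4 changed sign. For 82 differences of other named genes the figures were 1571 of 1844, 270 and 3. In H7 against Parental the calls of Hoxa2, Hoxa5, Hoxa7, Hoxa10, Hoxb8, Hoxb9, Hoxc8, Hoxc9 and Hoxd10 held in all 23 alternatives run. Hoxb8 had passed the main filter through H7 alone.
The count of HOX genes called in the mean of the clones went from 9 to 4 with limma on log2(TPM + 1) without the filter, to 2 with the 9 knockout libraries as 1 group and to 0 with counts summed per line, where no gene at all was called. For H7 it went from 15 to 9 with that limma fit and to 9 with only the libraries of the groups compared, and for the middle passage from 7 to 0 with that limma fit. The cause of these changes was not tested.
With the passage number as a replicate block the F5 against G5 count was 1 instead of 2, and beside Hoxc8 there and Hoxc6 in F5 against H7 it ended no other call of a HOX gene between clones. Against Parental, where the numbers did not pair the libraries, it gave 7 HOX genes for the mean of the clones, 3 for F5, 3 for G5 and 11 for H7. With the place in the passage order as a block, which the main fit left out, the F5 against G5 count was 1 and that of G5 against Parental was 5 instead of 3. That block gave 11 instead of 9 for the mean, 6 instead of 4 for F5 and 16 instead of 15 for H7. For F5 against H7 it gave 15 instead of 11, and for G5 against H7 16 instead of 11. The F5 against G5 count was also 1 with limma on log2(TPM + 1), with and without the filter, with only these groups, and without the second passage of every line (chosen after seeing the data).
Leaving out 1 library in turn gave 3 to 5 HOX genes for G5 against Parental, 1 to 2 for F5 against G5 and 2 to 5 for the middle passage. It gave 6 to 9 for the mean, 3 to 5 for F5, 10 to 15 for H7, 9 to 14 for F5 against H7 and 10 to 13 for G5 against H7. The share of all genes called under each alternative is not given beside these counts. They therefore do not separate a change of the HOX genes from a change in the calls of all genes.
Signs changed in the mean of the clones with counts summed per line for Hoxc8 (0.39) and Hoxc9 (0.48), and with the knockout libraries as 1 group for Hoxc8 (0.36) and Hoxc9 (0.45), both of which weigh the clones by counts and so H7 most. With chromosome medians removed the sign changed for Tax1bp1 in F5 against H7 (-0.073) and G5 against H7 (-0.018) and for Smug1 in G5 against H7 (0.064). Low counts limit Hoxa9, Hoxc11 and Hoxd10, which had at most 25 counts in a library.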
